A study of Mus musculus with 2 samples.

Results

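The epidermal differentiation complex is a run of genes on mouse chromosome 3 that encode proteins of the cornified envelope and of calcium signalling in surface epithelia. Its members were taken as all protein-coding genes of RefSeq lying from 90511034 to 93564645 (GRCm38), from S100a1 at one end to S100a10 at the other. That window held 70 of 21900 protein-coding genes. They were 15 S100 genes, 7 fused S100 genes, 14 small proline-rich (Sprr) genes, 21 late cornified envelope (Lce) genes, loricrin (Lor) and involucrin (Ivl), 2 peptidoglycan recognition genes, 6 other genes of the complex and 3 neighbours.

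The measurements were Hi-C contacts in sorted hair matrix keratinocytes at postnatal day 4.5, in which DNA ends held close together by fixation are ligated and sequenced. Wild-type mice (WT) gave 1 library. The other was of mice in which Cre recombinase, driven by the Krt14 promoter, had deleted Tet2 and Tet3 (Tet2/3 DKO, here DKO). The Krt14 promoter is active in basal epithelial cells, so deletion is set by that expression. How many animals stood behind each library is not given in the sources used here. Each library had a list of enriched pixels, which are pairs of 5 kb bins (anchors) that share more contacts than the pairs around them. Of 5811 WT pixels and 4872 DKO pixels, 7 and 9 had an anchor in the complex. There were no replicates, so no value has a replicate error, and a difference between the libraries cannot be assigned to genotype. Contacts do not measure transcripts, so the cell type label was not checked against marker expression.

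The complex is switched on in an ordered way as keratinocytes stop dividing and harden. S100 proteins bind calcium through EF-hands. The fused S100 proteins, such as filaggrin and trichohyalin, join an S100 domain to long repeats and bundle or embed keratin filaments. Loricrin, involucrin, SPRR and LCE proteins are cross-linked under the cell membrane to form the envelope. In the hair follicle, trichohyalin is a hallmark of the inner root sheath and medulla. Chromatin loops often have anchors at sites bound by CTCF, a DNA-binding protein at which cohesin stops.

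Most listed contacts lay toward the 2 ends of the complex. Without the first and last 250 kb of the window, 1 WT pixel and 2 DKO pixels were left. So few pixels cannot show that the middle had fewer contacts than the rest of the chromosome. Anchors came within 10 kb of 12 genes in WT, where the share over all protein-coding genes was 23.7%, and of 7 genes in DKO, where it was 22.4%. Among the 12, 9 were S100 genes and the other 3 were Rptn, Lelp1 and Lce6a. All 7 genes reached in DKO were also reached in WT, namely S100a2, S100a3, S100a4, S100a5, S100a6, S100a10 and Rptn. Over the genome 14.8% of genes were reached in both. S100a1, S100a13, S100a14, Lelp1 and Lce6a were reached in WT alone, and no gene in DKO alone. The shares of all genes reached in 1 list alone were 8.91% for WT and 7.6% for DKO, so 5 of 70 in WT alone is near the background. Of the 5 genes, 0 were left where every false discovery rate (FDR) had to be under 0.01, and 2 without weak 1-pixel loops.

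Of 14 Sprr genes none lay within 10 kb of an anchor in either list, and of 21 Lce genes only Lce6a did. Over all protein-coding genes 31.3% were reached in either list, so most were not. Genes of a family lie side by side and are not separate observations. S100a2 to S100a6, for example, were all reached by the 2 anchors of 1 contact. The Sprr genes were 60.8 to 213 kb from the nearest anchor in WT and 106 to 390.3 kb in DKO. In the Lce family the WT median was 172 kb and the DKO median 331 kb. The S100 family had a median of 5.67 kb in WT and 18.7 kb in DKO, and its members ranged from 0 to 468 kb in both. Lce6a in WT, Lor in DKO (21.9 kb) and Ivl in WT (26.2 kb) were thus nearer to an anchor than some S100 genes. The limit of 10 kb decided 5 of the 12 genes: Rptn (5.56 kb), S100a1 (5.67 kb, WT), S100a2 (5.25 kb), S100a4 (8.96 kb) and Lelp1 (7.25 kb, WT) lay between 5 and 10 kb, so that a limit of 5 kb left 7 genes in WT and 4 in DKO. Outside it lay Smcp (10.9 kb, WT), Prr9 (12.2 kb, DKO), S100a16 (12.3 kb, WT) and Pglyrp3 (12.3 kb, DKO). The Sprr2 and Lce1 genes are tandem copies of each other. How reads fitting several copies were treated is not given in the sources used here, so the lack of listed contacts among them is uncertain.

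**Figure D1:**
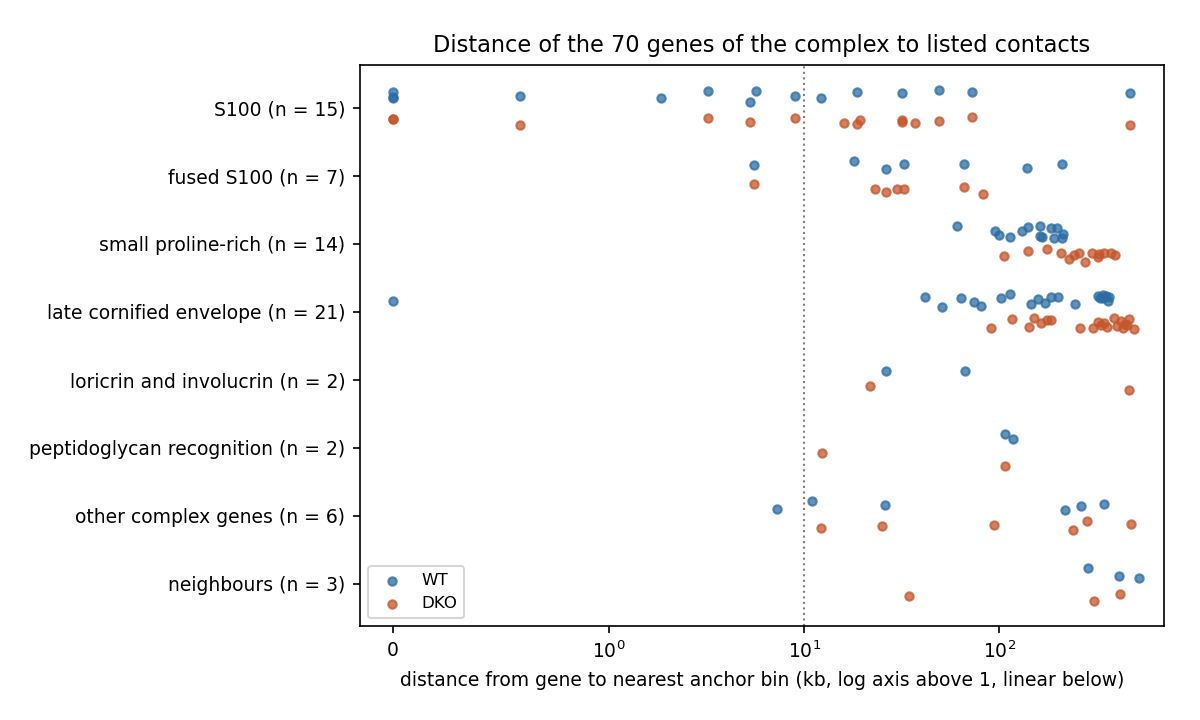
Distance in kb from each of the 70 genes to the nearest anchor bin of the WT list (blue) or DKO list (orange), by family, on an axis that is logarithmic above 1 kb and linear below, with the 10 kb limit dotted. Of 15 S100 genes 9 sit left of the limit in WT and 6 in DKO, while all 14 Sprr genes sit right of it in both. Over all protein-coding genes 23.7% lay within the limit in WT and 22.4% in DKO. Neighbouring genes share anchors, so the points are not independent.

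The share of genes reached was 17.1% in WT (12 of 70, exact 95% binomial interval 9.18 to 28.0) and 10% in DKO (7 of 70, 4.12 to 19.5). These shares were under the 23.7% and 22.4% of all genes. The WT interval included 23.7%, while the DKO interval did not include 22.4%. The complex stayed under all genes with each of 7 alternative filters and distance rules, but the gap was small with stricter pixel filters. At an FDR under 0.01 it was 10% against 12.4% in WT and 10% against 10.9% in DKO. With at least 20 contacts it was 10% against 11.8% in WT and 8.57% against 10.4% in DKO. These intervals cover counting error only and treat genes as independent, although neighbours here share an anchor. Genes of the complex were also shorter, with a median length of 2.00 kb against 17.1 kb, and a longer gene has more sequence near which an anchor can fall. Counted by gene starts, where a start was given, anchors reached 6 of 62 genes in WT (9.68%, against 14.3% of all) and 3 in DKO (4.84%, against 14.1%). The part of length in the first count was otherwise not tested.

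**Figure D2:**
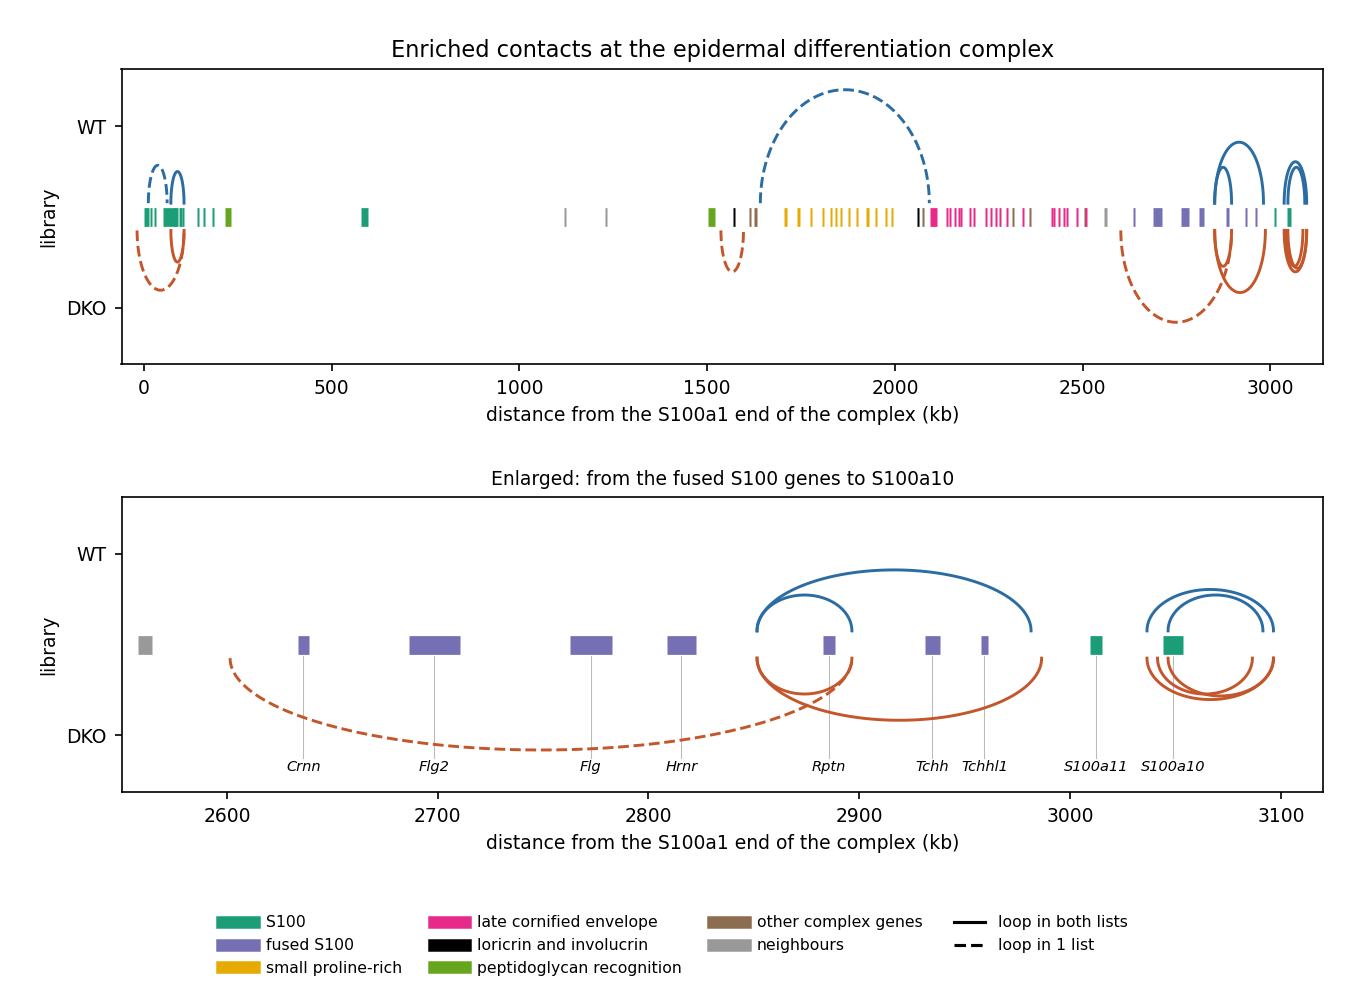
Listed contacts along the complex as arcs between anchor centres, WT above and DKO below the genes, with distance in kb from the S100a1 end on the x axis; the lower panel enlarges the S100a10 end. Solid arcs are loops present in both lists and dashed arcs loops in 1 list. Arcs cluster at the 2 ends, and 1 WT arc spans the Sprr genes.

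At the S100a1 end, the contact found in both libraries joined S100a3 with the 3' side of S100a6 over 35 kb. S100a3 encodes a calcium- and zinc-binding protein abundant in the hair cuticle, and S100a6 encodes calcyclin. The anchors were 90580001 to 90585000, inside the annotated S100a3 gene, and 90615001 to 90620000, 0.587 kb past S100a6. S100a3 is annotated from 90560356 to 90602706, a stretch that also holds S100a2. Its given starts lay 0, 1.95, 3.56 and 14.8 kb from the nearest anchor, so only the first of them was in the bin. This pixel had 28 observed contacts in WT on 7.59 expected and 26 in DKO on 8.55 expected. Expected counts here are those of the donut, the ring of pixels around the called one. The enrichment, observed over expected, was 3.69 in WT (exact 95% Poisson interval 2.45 to 5.33) and 3.04 in DKO (1.99 to 4.46). The 2 libraries' intervals overlapped. S100a2, S100a4 and S100a5, further EF-hand genes, lay between the same anchors. S100a4 encodes metastasin, a regulator of cell motility.

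The upstream sequences of S100a3 and S100a6 are printed because one gene start of S100a3 (90584659) lay inside an anchor of this contact and the start of S100a6 lay 2.11 kb from the other. Both are the 250 bases before the gene start, 5′ to 3′ on the + strand, from RefSeq (GRCm38.p6), at chr3:90584409-90584658 and chr3:90612644-90612893. Capitals mark letters matching a loose form of the CTCF core: CC, 3 bases of any kind, AG, 2 of any kind, and GGC.
S100a3: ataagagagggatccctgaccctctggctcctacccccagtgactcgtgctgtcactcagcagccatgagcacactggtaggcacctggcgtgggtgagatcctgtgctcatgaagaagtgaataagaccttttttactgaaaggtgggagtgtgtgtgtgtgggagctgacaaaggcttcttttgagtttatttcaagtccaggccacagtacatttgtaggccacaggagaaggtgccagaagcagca
S100a6: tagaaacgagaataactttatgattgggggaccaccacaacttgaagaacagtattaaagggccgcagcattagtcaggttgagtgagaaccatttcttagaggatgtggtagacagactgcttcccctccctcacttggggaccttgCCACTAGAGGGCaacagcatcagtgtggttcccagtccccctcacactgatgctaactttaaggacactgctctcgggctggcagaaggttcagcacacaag
The S100a6 sequence held 1 such match, CCACTAGAGGGC, starting 102 bases before the gene start on the + strand. That search was added after the sequence had been read. The letters occurred in 8.61% of 32851 RefSeq promoters and in 3 of 67 promoters of the complex, those of S100a6, Prr9 and Smcp. The stricter form chosen earlier, with GG in place of the 2 free bases, every match of which is also one of the loose form, was in 1.28% of all promoters and in none of the complex. A match describes letters and does not show that CTCF is bound. The promoter of S100a10 is not printed.

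Each library added a contact of its own at this end, and the S100a6 anchor took part in the DKO one. In WT a pixel over 50 kb joined S100a13 (anchor 90520001 to 90525000) with S100a3 (90570001 to 90575000), with S100a1 and S100a14 also within 10 kb. The S100a3 bin lay inside the annotated gene but held none of its given starts. S100a13 is known for its part in the release of FGF1. That pixel had 17 contacts on 5.51 expected, an enrichment of 3.08 (1.80 to 4.94). In DKO a pixel over 125 kb joined the S100a6 anchor with an anchor inside Snapin (90490001 to 90495000), just outside the complex. Snapin encodes a partner of the vesicle fusion machinery. Ilf2, a double-stranded RNA-binding factor, and Chtop, a target of the arginine methylase PRMT1, lay within 10 kb of that anchor. It had 19 contacts on 5.20 expected, an enrichment of 3.65 (2.20 to 5.70). Both were weak calls, with highest FDRs of 0.0722 and 0.0918 among the 4 neighbourhoods. The other library's counts at these 2 pixels are not recorded.

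S100a8 and S100a9, which together form the antimicrobial protein calprotectin, were 49.1 and 72.6 kb from the nearest anchor in both lists. S100a7a was 31.9 kb away in both. S100a7l2 lay alone at 468 kb. Past the S100a6 anchor the next one came after 1530 kb in WT, at Lelp1, and after 1425 kb in DKO, ahead of Lor. These empty stretches held 11 and 8 genes. Stretches without an anchor elsewhere on the chromosome were not measured, so their lengths have no background.

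At the other end, the contacts around S100a10 all ran out of the complex, and some of them enclosed that gene. S100a10 encodes p11, the partner of annexin A2. WT had 2 pixels and DKO 3 that joined bins at or near S100a10 (from 93545001 to 93560000) with bins from 93595001 to 93610000, beyond the last gene of the complex. They formed 1 loop in each list. No protein-coding gene lay within 10 kb of the far anchors. The pixel of 60 kb span was listed in both, with 25 contacts on 3.00 expected in WT and 18 on 3.29 in DKO. Its enrichment was 8.32 in WT (5.39 to 12.3) and 5.47 in DKO (3.24 to 8.65). The other WT pixel had 19 contacts, 3.83 times expected. The other DKO pixels had 17 and 16 contacts, 3.65 and 4.41 times expected. The 60 kb pixel was therefore the highest of its loop in both libraries. Its near anchor lay 5.12 kb from S100a10, on the S100a11 side, so this pixel enclosed the gene. The DKO pixel of 17 contacts enclosed it as well. Only the WT pixel of 19 contacts and the DKO pixel of 16 had an anchor overlapping S100a10, with highest FDRs of 0.0820 and 0.0380. S100a11, a partner of annexin A1 that is built into the envelope, lay 18.7 kb from the nearest anchor in both.

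Among the fused S100 genes, repetin (Rptn) was the only one within 10 kb of an anchor, at 5.56 kb in both lists. Repetin is an envelope protein of the upper epidermis and of hair. A 5 kb bin in the gap between Hrnr and Rptn (93360001 to 93365000), 26.4 kb past hornerin, took part in 2 contacts in each library. One ran 45 kb to the 3' side of Rptn (93405001 to 93410000). It had 23 contacts in each library, on 4.61 expected in WT and 6.10 in DKO. Enrichment was 4.99 (3.16 to 7.49) and 3.77 (2.39 to 5.66). The equal counts with unequal ratios come from the expected values.

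The second contact of that bin enclosed Rptn, Tchh and Tchhl1 and ended between Tchhl1 and S100a11, where no gene lay within 10 kb. Tchh encodes trichohyalin, and Tchhl1 a related protein. In WT it ran 130 kb to 93490001, with 23 contacts on 2.27 expected. This was the highest enrichment of the complex, 10.2 (6.43 to 15.2), above that of 95.6% of the WT list. That rank covers pixels of all spans and expected counts. Among 415 DKO pixels in the same class of donut expected count, the lowest count was 11. A pixel with so low an expected count is therefore listed only with a high ratio. In DKO the contact ran 135 kb to the next bin, 93495001, with 17 contacts on 2.61 expected, 6.51 (3.79 to 10.4). The intervals overlapped, and the pixels differ by 1 bin, so no ratio was formed. Trichohyalin lay inside this contact and 32.3 kb from the nearest anchor in both lists.

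One more contact of this region was in DKO alone. It ran 295 kb from a bin ahead of cornulin (93110001 to 93115000) to the Rptn anchor, and enclosed Crnn, Flg2, Flg, Hrnr and Rptn. Flg encodes filaggrin, which aggregates keratin filaments. It had 16 contacts on 1.97 expected, an enrichment of 8.11 (4.63 to 13.2). Of the 5 loops present in 1 list only, this was the one left at an FDR under 0.01 in all neighbourhoods. Filaggrin itself was 66.3 kb from the nearest anchor in both, Flg2 139 kb in WT and 82.3 kb in DKO, and Crnn 210.2 kb and 29.8 kb.

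**Figure D3:**
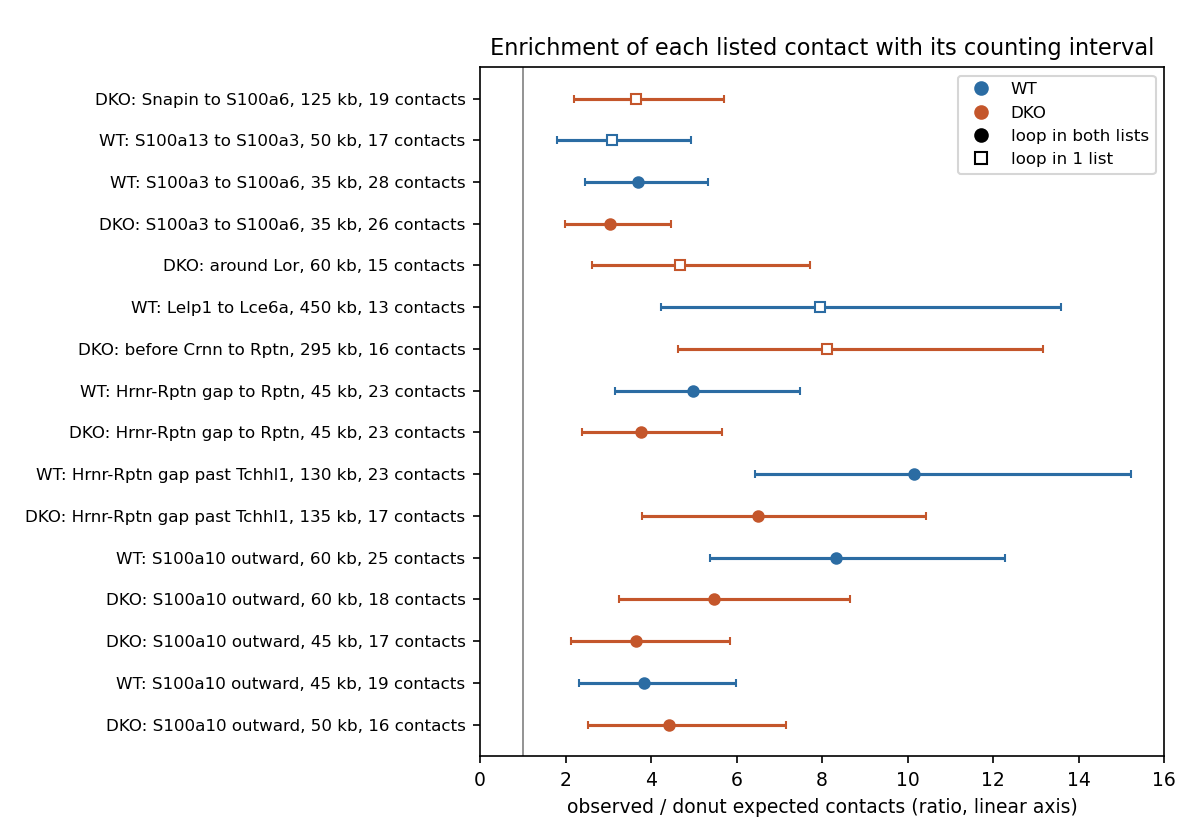
Enrichment (observed over donut expected contacts, linear axis) of the 16 listed pixels in order along the chromosome, with exact 95% Poisson intervals; filled circles are loops in both lists and open squares loops in 1 list, blue for WT and orange for DKO. At each of the 3 pixels in both lists the DKO value is the lower one and the intervals overlap.

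In the middle of the complex each list had 1 contact that the other list lacked, besides the DKO contact ending ahead of Crnn, and none had an anchor at an Sprr gene. The WT contact spanned the whole Sprr cluster. It ran 450 kb from a bin 7.25 kb from Lelp1 (92150001 to 92155000) to Lce6a (92600001 to 92605000). It enclosed all 14 Sprr genes, Ivl and Smcp. Lelp1 encodes a proline-rich protein similar to those of the late envelope, and Smcp encodes a sperm mitochondrial protein. It had 13 contacts on 1.64 expected, an enrichment of 7.95 (4.23 to 13.6). Its highest FDR was 0.0117. Its count was the lowest of the 7 WT pixels.

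The DKO contact of the middle enclosed loricrin alone. It ran 60 kb from 92045001 to 92105001, between bins without a gene within 10 kb. It had 15 contacts on 3.21 expected, an enrichment of 4.68 (2.62 to 7.71), with a highest FDR of 0.0199. Loricrin, the main mass of the envelope, lay 21.9 kb from the nearest anchor in DKO and 66.9 kb in WT. Involucrin lay 26.2 kb from an anchor in WT and 460.9 kb in DKO. In DKO no anchor was listed over 1000 kb from Prr9 to Tdpoz8, a stretch with all 14 Sprr and all 21 Lce genes. In WT the corresponding empty stretches were 445 kb (Sprr2a1 to Smcp) and 755 kb (Lce1a1 to Hrnr). No background of such lengths was measured here either.

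The upstream sequences of Rptn, whose 3' side was an anchor in both libraries, and of Lor, the gene enclosed in DKO, are printed to show 2 motifs counted over all promoters of the complex. They are the 250 bases before each gene start, 5′ to 3′ on the gene's strand, at chr3:93393449-93393698 (+ strand) and chr3:92083143-92083392 (− strand) of GRCm38.p6 from RefSeq. Capitals mark TATAAA, the TATA box, and TGANTCA, the site of AP-1, a factor of keratinocyte differentiation.
Rptn: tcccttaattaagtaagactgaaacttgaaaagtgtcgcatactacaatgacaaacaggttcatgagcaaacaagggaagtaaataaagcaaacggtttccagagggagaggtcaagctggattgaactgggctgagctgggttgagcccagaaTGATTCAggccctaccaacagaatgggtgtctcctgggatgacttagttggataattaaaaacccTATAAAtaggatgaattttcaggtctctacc
Lor: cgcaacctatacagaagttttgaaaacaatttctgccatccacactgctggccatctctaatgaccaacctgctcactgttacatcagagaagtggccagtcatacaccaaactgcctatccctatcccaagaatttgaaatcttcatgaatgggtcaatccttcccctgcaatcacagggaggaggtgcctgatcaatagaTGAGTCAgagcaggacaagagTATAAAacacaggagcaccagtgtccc
In Rptn the AP-1 letters began 96 and the TATA letters 31 bases before the start, and in Lor 48 and 27 bases before it.

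RefSeq gave 67 promoters, each from 250 bases before to 50 after a start, for 62 of the 70 genes. On either strand TATAAA was in 29 of them (43.3%), against 13.6% of 32851 promoters of all genes, coding or not. TGANTCA was in 20 (29.9%), against 7.81%. These 2 motifs do not share letters in either sequence above. Families differed, with AP-1 letters in 9 of 14 Sprr promoters, 5 of 7 fused S100 promoters and 3 of 16 S100 promoters but in 0 of 20 Lce promoters. TATAAA was in 10 of 14 Sprr and 4 of 20 Lce promoters. CACCC, the letters of KLF factors, was in 53.7% of the complex and 57.5% of all. The median GC content was 46.7% in promoters of the complex and 52.7% over all promoters. The part of base content in the motif shares was not tested. Tandem copies share sequence, so these promoters are not independent.

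Pixels listed in both libraries allow a direct comparison, and the complex had 3 of 1940. DKO/WT enrichment was 0.825 at S100a3 to S100a6 (exact conditional binomial 95% interval 0.465 to 1.46), 0.756 at the Rptn contact (0.405 to 1.41) and 0.658 at S100a10 (0.338 to 1.25). All 3 intervals included 1. Only the S100a10 pixel passed a 1.5-fold limit, and 5.26% of the 1940 pixels did so in that direction and 3.56% in the other. It did not pass with vertical expected counts (0.783) or scaled by the genome-wide ratio of expected counts (0.740). The median over all 1940 was 0.983, with quartiles of 0.841 and 1.15.

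Observed counts differed little at the first 2, with DKO/WT ratios of 0.929 and 1, and more at S100a10 with 0.72. Donut expected counts were higher in DKO at all 3, with ratios of 1.13, 1.32 and 1.10, while the median over the 1940 pixels was 0.973 (quartiles 0.904 and 1.05). The Rptn pixel exceeded 99.3% of these pixels in that ratio. Scaled by the genome-wide 0.973 instead of the local expected counts, the observed ratios were 0.954, 1.03 and 0.740, so the Rptn value changed sides of 1. With vertical expected counts the Rptn ratio was 1.09. The order of the libraries at Rptn therefore rested on the choice of expected count. At S100a10 the ratio was under 1 with all 4 expected counts, from 0.641 to 0.783.

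**Figure D4:**
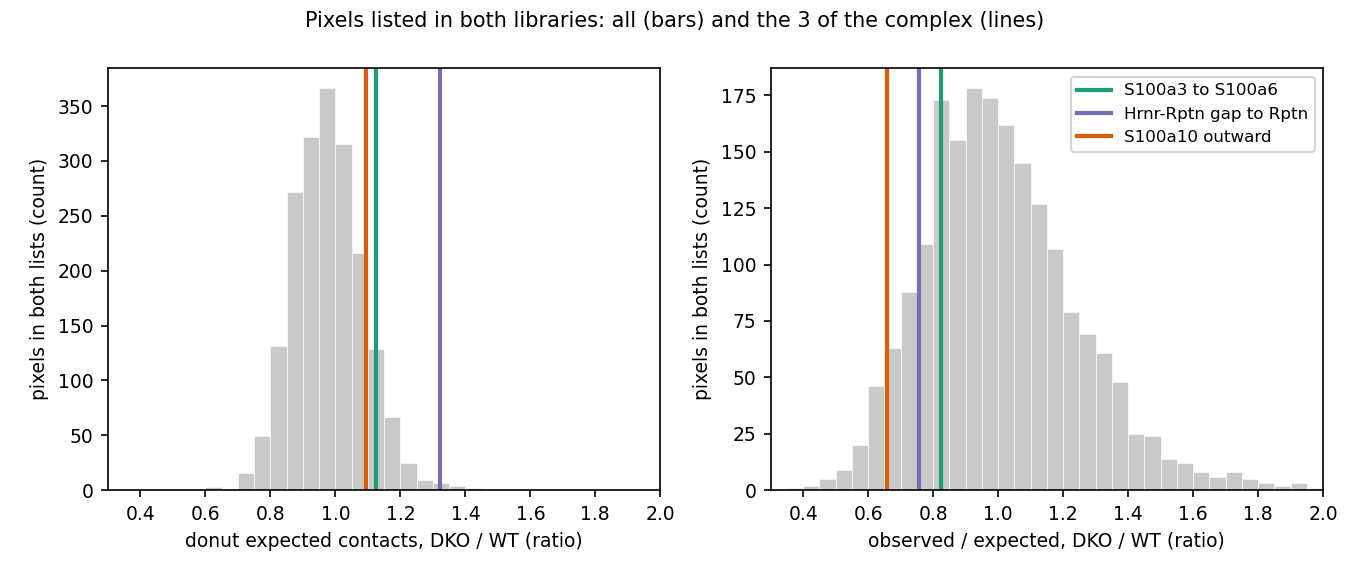
Histograms of the DKO/WT ratio of donut expected contacts (left) and of enrichment (right) over the 1940 pixels in both lists, bars counting pixels, with lines at the 3 pixels of the complex. The lines lie right of the middle on the left panel (1.10 to 1.32) and left of it on the right panel (0.658 to 0.825). Of the 1940 pixels, 2 on the left and 8 on the right lie outside the axis.

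Set beside pixels of the same span, the contacts around Tchh and at S100a10 had low expected counts, and the Rptn contact did so in WT but not in DKO. The WT pixel around Tchh had 2.27 expected contacts, where 113 WT pixels of 130 kb had a median of 3.54, and 23 observed against a median of 18. The S100a10 pixel had 3.00 expected in WT against 4.89 over 184 pixels of 60 kb, and 25 observed against 20. In DKO it had 3.29 against 4.91 over 171 pixels, and 18 observed against 20. The 45 kb Rptn contact had 4.61 expected in WT against 6.03 over 203 pixels, and 6.10 in DKO against 5.83 over 210 pixels. The S100a3 to S100a6 pixel was above the median, with 8.55 expected in DKO against 6.67 over 275 pixels of 35 kb. The DKO pixel around Tchh had 2.61 expected against 3.48 over 76 pixels of 135 kb, and 17 observed against 17. At Tchh and S100a10 the WT pixels thus had more contacts and lower expected counts than the medians of listed pixels of their spans. A high ratio is made up of such values by construction. In DKO the contacts at both were not above those medians.

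The complex held 22.9 genes per Mb, against 5.95 in the rest of chromosome 3. Its pixels numbered 2.29 per Mb in WT (0.921 to 4.72) and 2.95 per Mb in DKO (1.35 to 5.59), against 1.54 (1.35 to 1.75) and 1.17 (1.01 to 1.36) in the rest of the chromosome. The intervals treat pixels as independent, although 2 WT and 3 DKO pixels were the same loop at S100a10. A pixel with only 1 anchor in the window was counted in the complex and not in the rest. Both anchors were in the window for 5 WT and 5 DKO pixels. Without the first and last 250 kb of the window the densities were 0.391 and 0.783, from 1 WT and 2 DKO pixels among 51 genes. These point values were under those of the rest of the chromosome, but 1 and 2 pixels are too few to place the middle below it. Most pixels of the whole window lay at its ends. Per 100 genes the complex had 10 pixels in WT and 12.9 in DKO, against 25.8 and 19.7.

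Joined into loops where both anchors lay within 20 kb, the pixels made 6 loops in WT and 7 in DKO. In each list 4 loops had a pixel of the other within 2 bins at both anchors: S100a3 to S100a6, both contacts of the Hrnr to Rptn gap, and S100a10. Over the genome 50.1% of WT loops and 55% of DKO loops were shared, and 4 of 6 and 4 of 7 lie near that background at these small numbers. The median span was 55 kb in WT (35 to 450 kb) and 60 kb in DKO (35 to 295 kb), against 115 and 100 kb over all loops. Of 13 anchor bins in WT and 14 in DKO, 7 were the same bin, and 4 and 7 had no protein-coding gene within 10 kb.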

How the data were processed

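Hi-C covered 2 libraries, 1 WT and 1 DKO. Per the file headers the authors listed enriched pixels with juicer_tools 1.22.01. The submitters' processing notes name Juicer and GRCm38 (mm10). Sources used here give no aligner, read filter or sequencing depth. The authors deposited the observed contact count (not normalised), 4 expected counts as a signal on that scale, a score numbering the class of each expected count, and a q-value per neighbourhood, all under 0.1. Pixels that were not called are not recorded.

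From these, pixels with an anchor bin in the window were taken with Python 3.11.15, pandas 2.3.3 and scipy 1.17.1, and genes with a body within 10 kb of an anchor were assigned from RefSeq GRCm38.p6. Enrichment is observed over donut expected and is known for called pixels only, so enrichments and their intervals are conditional on the call. Intervals are exact (95%: Poisson, conditional binomial, Clopper-Pearson), take expected counts as fixed and cover counting error only. No test was made, since each genotype had 1 library. Functions were checked on simulated data. Every gene within 10 kb of an anchor is named, as are Flg, Lor, Ivl, Tchh, Hrnr, Rptn and Crnn; others were named after their values were seen. Upstream sequences were printed by rule for S100a3 (start inside an anchor of a shared loop) and Lor, and for S100a6 and Rptn after their values were seen. Members, families and rules were chosen with earlier results of these data known. Alternatives were an FDR under 0.01, at least 20 contacts, removal of 1-pixel loops with FDRs summing to over 0.02, both anchors in the window, other linkage, matching and gene distances, other expected counts and a shorter window. Coordinates are 1-based.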

Additional observations from a re-analysis of the deposited data

How the results depend on the processing

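Under the alternatives 115 values were recomputed. Of these 74 stayed inside their interval (counts, spans and the enrichment ratio: within 1.5 times) and 41 moved further. Background values are among the 115. The shares of all genes moved under every alternative. The densities of the rest of chromosome 3 moved at an FDR under 0.01 and with at least 20 contacts. At an FDR under 0.01 there were 4 WT and 5 DKO pixels and 0 genes in WT alone. With at least 20 contacts there were 4 WT and 2 DKO pixels, 2 DKO loops, 2 shared loops in each list and 0.655 DKO pixels per Mb. The 1 gene then in WT alone was S100a10, which both lists reached without that limit. DKO then had fewer pixels than WT (1.31 per Mb), where it had more (9 against 7) without that limit. Without weak 1-pixel loops 2 genes were in WT alone. With both anchors in the window DKO had 5 pixels. Without 250 kb at each end there were 0.391 WT and 0.783 DKO pixels per Mb, from 1 and 2 pixels. These values were under the rest of chromosome 3 where the whole window was above it, but so few pixels do not establish a reversal. With genes within 5 kb, 4 genes were in both lists and 3 in WT alone. With genes overlapping the anchor, 2 were in both and 2 in WT alone, 5.71% of the complex in WT and 2.86% in DKO. With gene starts within 10 kb, where 8 genes without a given start count as not reached, 3 were in both and 3 in WT alone, 8.57% of the complex in WT. Fewer pixels or a shorter reach give lower counts by construction. Linkage at 10 or 50 kb, and matching at the same pixel, 1 bin or 5 bins, left 6 WT and 7 DKO loops, with 3 or 4 shared. No paired analysis was possible because there was a single library per genotype, so no replicate could be left out either. Depth limits single pixels: their counts were 13 to 28 contacts.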

Other observations

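Some anchors of the complex, with or without a protein-coding gene within 10 kb, lay at annotated non-coding genes. The share of all anchors near such genes was not counted. The DKO anchor ahead of Crnn overlapped the long non-coding RNA gene Gm35785 (93097581 to 93128245), and the WT anchor at Lce6a also overlapped the long non-coding RNA gene Gm35639 (92573821 to 92646547). The far side of the S100a10 contacts lay at Gm40093, a long non-coding RNA gene that overlapped an anchor in DKO and was 2.50 kb from one in WT, and at the pseudogene Gm18331, which overlapped an anchor in both. The bin in the gap between Hrnr and Rptn had no annotated gene of any kind within 10 kb. Whether these genes are transcribed in these cells was not measured.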
